A study of Homo sapiens with 2 samples.

Results

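The long arm of chromosome 6 held 2395 of the 60126 CHD4 peaks in the deposited list, or 3.98% of them. A peak belonged to the arm if its start on hg19 lay at or beyond 61900000 of chromosome 6. The arm was chosen with earlier results of these data known, and was selected on 1 measured value, its number of peaks for its number of transcription starts. Its peak count and its rank by peaks per start are therefore given as a description, and no test is made.

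The cells were 501Mel, an established human melanoma line cultured in RPMI with foetal calf serum, and CHD4-bound DNA was sequenced by ChIP-seq. There was 1 library of DNA recovered with CHD4 and 1 library of input chromatin, both from sonicated chromatin fixed with 0.4% paraformaldehyde and neither with a replicate. Every interval below is a Wilson interval at 95% that covers counting error only, and no spread between replicates can be given. The list gives no read counts, so the depth behind a peak can only be estimated under an assumed formula. It carries no expression, so the labelled cell type was not checked against markers.

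CHD4 is the ATPase of the NuRD complex, which couples the sliding of nucleosomes to the removal of acetyl groups from histones and is found at both promoters and enhancers. One of its deacetylase subunits, *HDAC2*, is encoded on this arm. Loss of parts of the long arm of chromosome 6 is common in melanoma, but the copy number of these cells was not measured in the list. The arm also carries *ARID1B*, a subunit of another remodelling complex, SWI/SNF, and some of the longest genes of the genome.

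The sequences under 4 of the 5 strongest peaks are shown because these are sites of the highest fold enrichment on the arm. Each is a stretch of 151 bp read from the plus strand of GRCh37, the build that hg19 names, at the centre of its peak, except that the stretch for *EEF1A1* lies 785 bp from the centre.
EEF1A1 promoter peak, chr6:74231624-74231774: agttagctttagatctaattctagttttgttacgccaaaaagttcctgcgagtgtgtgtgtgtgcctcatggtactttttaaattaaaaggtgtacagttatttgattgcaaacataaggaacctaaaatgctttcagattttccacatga
STXBP5-AS1 peak, chr6:147178996-147179146: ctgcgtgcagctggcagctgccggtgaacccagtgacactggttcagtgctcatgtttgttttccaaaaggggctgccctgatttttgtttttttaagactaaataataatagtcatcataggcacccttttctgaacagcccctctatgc
FAM135A intron peak, chr6:71136527-71136677: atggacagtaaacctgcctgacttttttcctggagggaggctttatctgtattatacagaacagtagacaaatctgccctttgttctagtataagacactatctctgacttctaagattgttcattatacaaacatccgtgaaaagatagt
peak between genes near TTLL2, chr6:167806009-167806159: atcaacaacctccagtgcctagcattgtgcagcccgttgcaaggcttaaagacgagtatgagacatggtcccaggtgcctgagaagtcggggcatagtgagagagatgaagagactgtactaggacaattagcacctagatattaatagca
These stretches differ in base composition. The one in *EEF1A1* is 34.4% G or C, and the one in *STXBP5-AS1* is 46.4%.

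A second set of sequences shows the strongest peak of the arm that held a match to each of 4 motifs near its centre, with the match in capitals. The letters CACGTG are an E-box of the kind bound by MITF, the master regulator of melanocytes. The letters TGACTCA are bound by AP-1, GGAATG by TEAD factors, and the longer motif by CTCF, which organises chromatin loops.
E-box in FOXO3 intron 2, chr6:108989462-108989567: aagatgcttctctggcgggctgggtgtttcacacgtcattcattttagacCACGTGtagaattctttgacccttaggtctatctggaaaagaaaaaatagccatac
AP-1 in SASH1, chr6:148651197-148651303: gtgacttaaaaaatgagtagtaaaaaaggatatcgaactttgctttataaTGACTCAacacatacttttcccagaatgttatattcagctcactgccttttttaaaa
TEAD in SASH1, chr6:148650959-148651064: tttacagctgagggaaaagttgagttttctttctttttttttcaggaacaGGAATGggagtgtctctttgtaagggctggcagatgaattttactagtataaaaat
CTCF between genes near MCM9, chr6:119121802-119121913: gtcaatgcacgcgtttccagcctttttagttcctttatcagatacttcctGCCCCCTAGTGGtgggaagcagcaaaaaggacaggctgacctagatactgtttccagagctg
The AP-1 and TEAD matches lie in the same peak, of fold enrichment 4.84, within the annotated span of *SASH1*, a scaffold gene linked to pigmentation disorders. All 2289 bp of that peak fall outside the canonical transcript of the gene, and its centre is 12898 bp from the nearest annotated start. The E-box lies in a peak of fold enrichment 4.27 in *FOXO3*, a transcription factor of the stress response. The CTCF match lies in a peak of fold enrichment 3.73, 12684 bp from *MCM9*. It is the only one of these matches on the minus strand, so its letters are the reverse complement of the motif.

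CHD4 peaks were dense on the arm relative to its transcription starts and ordinary relative to its length. The annotation places 5162 distinct starts on the arm, which gave 46.4 peaks per 100 starts. This was the highest value among the 39 autosome arms with at least 10 Mb of sequence. The other 38 arms pooled had 27.4 peaks per 100 starts, and their median was 24.5, from 13.8 to 44.6. The next arms were the short arm of chromosome 6 (6p) with 44.6 and the short arm of chromosome 5 (5p) with 44.4, so the first rank rested on a narrow margin.

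The 3 arms closest to the long arm of chromosome 6 in starts per Mb were 4q, 5p and 18q. They spanned much of the range, with 32.3 peaks per 100 starts on 4q and 16.3 on 18q. The arm with the fewest starts per Mb, 13q at 42.8, had 40.9 peaks per 100 starts. A link between the density of starts and this ratio was not tested. Starts were sparse on the long arm of chromosome 6 itself, with 47.5 per Mb, the 36th of the 39 arms, against a median of 75.7 over the other arms. Its peaks per Mb came to 22.03, the 18th, against a median of 20.5. The peaks covered 2217544 bp, or 2.04% of the arm, against 2.08% over the other arms.

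**Figure D1:**
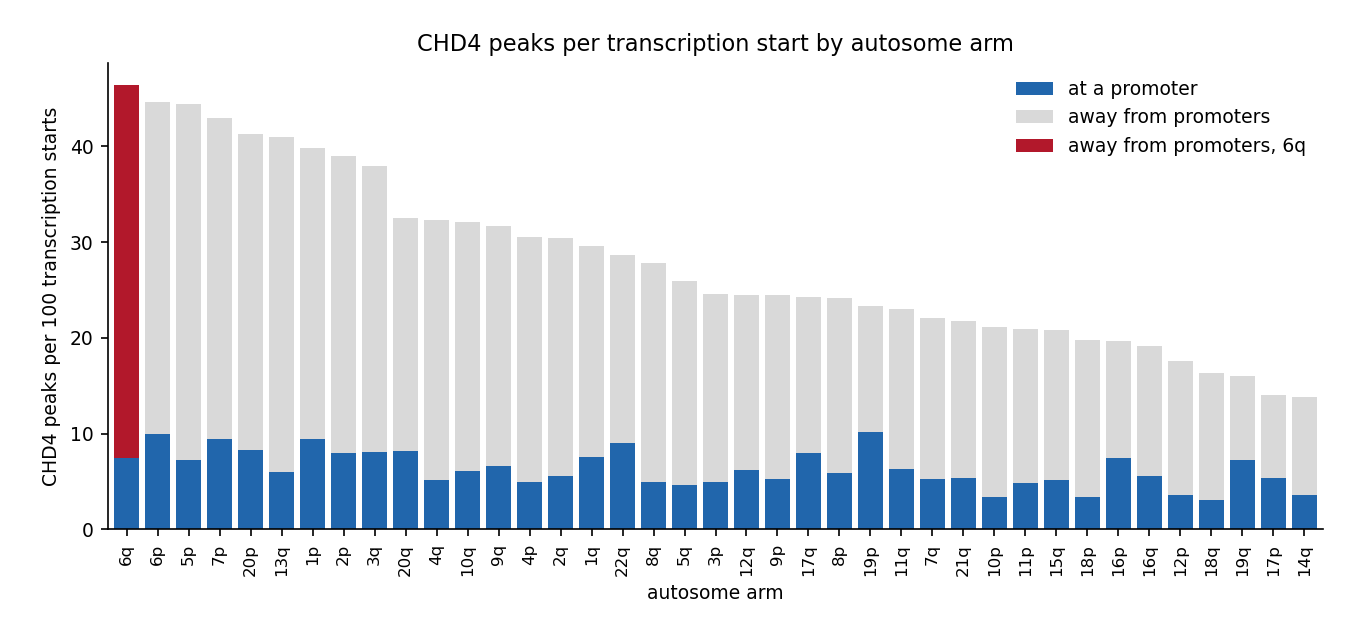
CHD4 peaks per 100 transcription starts (vertical axis) on each of the 39 autosome arms, in falling order, with each bar stacked from peaks at a promoter (blue) and peaks away from promoters (grey, or red on the long arm of chromosome 6). The long arm of chromosome 6 stands first with 46.4, of which 39.0 are away from promoters, and 6p and 5p follow closely.

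The surplus per start lay in peaks away from promoters. A peak counted as a promoter peak if it overlapped the region up to 1000 bp before or after an annotated start. Promoter peaks came to 7.42 per 100 starts, which was the 12th of the 39 arms, against a median of 5.92 over the other arms. Peaks away from promoters came to 39.0 per 100 starts, which was the first, against a median of 19.4. Per Mb, the latter came to 18.5, the 14th of the arms, against a median of 15.8.

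Of the 2395 peaks, 383 lay at a promoter, or 15.99% (14.6 to 17.5), against 23.2% of all peaks on the autosome arms. A further 1341 peaks, or 56.0%, lay in introns, against 47.6% on the other arms. Another 612, or 25.6%, lay between genes, close to the 25.7% of the other arms, and 59 lay in exons. The median distance to the nearest start was 9997 bp on the arm and 6578 bp on the other arms. There were 270 peaks more than 50000 bp from any start, 11.3% (10.1 to 12.6) of the arm's peaks, against 7.12% elsewhere. The arms with similar starts per Mb were close to it or beyond it, with promoter shares of 16.1% on 4q and 16.3% on 5p, and 12.4% and 15.4% of their peaks that far from a start. On 18q these were 18.6% and 8.37%. The intron shares of these arms were also above the 47.6% of the other arms pooled, with 51.6% on 4q, 53.1% on 5p and 53.3% on 18q.

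The peaks were typical of the list in size and enrichment, but few were very strong. Fold enrichment, the authors' ratio of ChIP signal to background, ran from 2.02 to 14.0 with a median of 3.10, beside 3.09 in the whole list. The middle 50% of the peaks lay between 2.88 and 3.42. The median length was 606 bp, beside 613 bp, from 151 to 9682 bp. The median −log10 q, the caller's measure of confidence after correction for multiple testing, was 1.90 beside 1.97. The lowest −log10 q on the arm was 1.03. The list thus reaches below 2, the level that matches the false discovery rate given in the study's reporting summary. The reason for this difference was not tested.

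At a −log10 q of at least 2 there were 1080 peaks, or 45.1% (43.1 to 47.1) of the arm's peaks, against 48.5% in the whole list. At 5 or more there were 23 peaks, or 0.960% (0.641 to 1.44), against 2.23%. The latter share was the lowest of the 39 arms, on which it reached 4.49%. A fold enrichment of at least 5 was reached by 6 peaks, or 0.251%, against 0.502%. The order of the arms by peaks per start turned with this threshold. With the 23 peaks alone the long arm of chromosome 6 had 0.446 per 100 starts and ranked 34th, whereas with the 1080 it was still first, at 20.9, beside 20.9 on 6p.

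The strongest peak by far lay at *EEF1A1*, which encodes the elongation factor that brings transfer RNAs to the ribosome. It ran from 74229682 to 74232147 with 14.0-fold enrichment at a −log10 q of 43.7, and a start of the gene lay 159 bp from its centre. Of its bases, set against the canonical transcript on the minus strand, 131 bp fell in exons 1 and 2 and 943 bp in introns, and the other 1392 bp lay outside that transcript. The other 5 peaks at the gene had fold enrichments from 2.68 to 3.14, so the strong signal was limited to 1 of its 6 peaks.

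The second strongest peak, of 6.69, lay with its centre 226 bp from the start of a long non-coding RNA gene, ENSG00000227748, inside *STXBP5-AS1*. The third, of 6.26, was in *LINC02519*. *FAM135A* held the fourth, of 5.68, in intron 3 and 371 bp from an annotated start. The fifth, of 5.65 and only 190 bp long, lay 33093 bp from *TTLL2*, a gene of the tubulin ligase family. Of these 5, only the peaks at *EEF1A1* and *FAM135A* were at a promoter of a protein-coding gene.

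The remaining 5 of the 10 strongest peaks were between 4.79 and 5.11. At *CCNC*, which encodes the cyclin of the Mediator kinase module, the peak of 5.11 lay 184 bp from a start. *UTRN*, the gene of the dystrophin relative utrophin, held a peak of 4.96 that covered 146 bp of exon 22. The peak of 4.84 in *SASH1* was described above. A peak of 4.79 lay 26179 bp from *IL22RA2*, a decoy receptor for a cytokine, and another of 4.79 lay in intron 7 of *BACH2*, a repressor of transcription in lymphocytes.

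The 5 longest peaks had fold enrichments from 3.36 to 3.86, above the median of the arm but below its 10 strongest peaks. The longest, of 9682 bp at chr6:108316191-108325872, overlapped the pseudogene *RPL3P7*, 29418 bp from *OSTM1*. One of 9661 bp lay in the annotated span of *PTP4A1*, a phosphatase gene, but wholly outside its canonical transcript. Another, of 9623 bp, was 193754 bp from *ALDH8A1*. The others, of 8750 and 7410 bp, lay at *LINC03002*, with *SGK1* the nearest coding gene, and over exon 2 of *TULP4*. Peaks of at least 3000 bp made up 4.22% of the arm's peaks, against 4.23% of the whole list.

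The boundary of the arm lay in a stretch with no peaks. The last peaks before it, at 58776597 and 58778625, had fold enrichments of only 1.39 and 1.32. The first after it, at 63572994 and 64022649, had 2.74 and 2.80. The last peak of the arm ended at 170916059, with a fold enrichment of 3.27. Moving the boundary within this empty stretch would not change which peaks are counted.

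Along the arm, peaks were spread unevenly. The 109 whole bins of 1 Mb held a median of 19 peaks, with the middle 50% of bins between 7 and 29 and the fullest at 113. The 10 fullest bins held 633 peaks, or 26.4% of the arm's total, and 15.8% of its starts. They were picked for their peaks and not for their starts, so a larger share of peaks follows in part from that choice. Over the 109 bins, peaks and starts had a Spearman's rho of 0.58 and a Pearson's r of 0.53, and peaks and GC content a rho of 0.53. Neighbouring bins share genes and base composition, so these are descriptions across bins and carry no p-value.

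There were 15 bins with more peaks than starts, or 13.8% of the whole bins, against 7.91% of such bins on the autosome arms. Bins without any peak numbered 4, or 3.67%, against 4.77%. The median distance between neighbouring peaks was 9316 bp, and 520 peaks had a neighbour within 1000 bp.

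**Figure D2:**
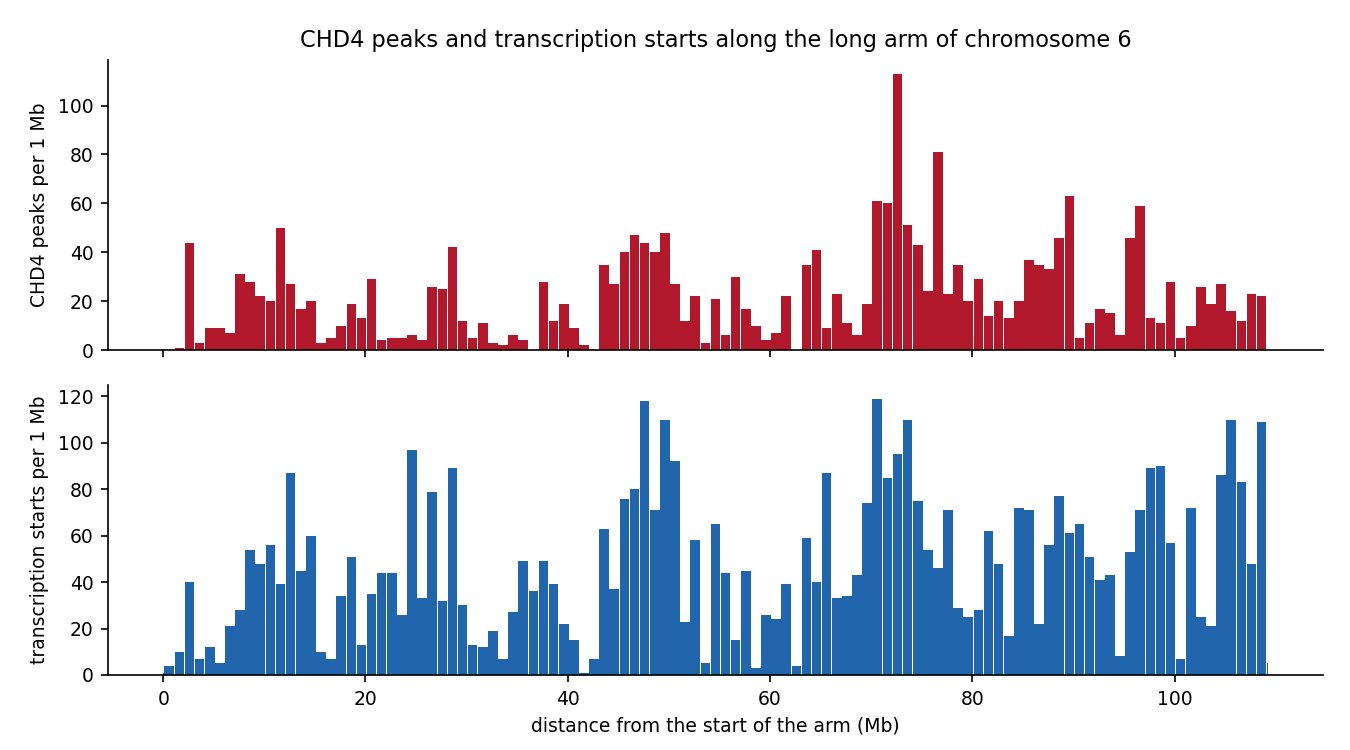
CHD4 peaks (upper panel, red) and transcription starts (lower panel, blue) per 1-Mb bin along the long arm of chromosome 6, against the distance in Mb from the start of the arm. The tallest red bar, of 113 peaks, stands in a bin with 95 starts, and long stretches hold few or no peaks.

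The fullest bin, from 134 to 135 Mb, was that of *SGK1*, a kinase of salt and stress signalling. It held 113 peaks over 95 starts, the 5th highest count among 2641 bins of the autosome arms, the highest being 138. Introns held 75 of these peaks and promoters 20. *SGK1* alone held 23, at 15.5 per 100 kb, with fold enrichments up to 4.29. The glucose transporter gene *SLC2A12* held 4, *TBPL1*, a relative of the TATA-binding protein, 3, and *TCF21*, a mesodermal transcription factor, 1. No peak of the bin reached a −log10 q of 5, and none exceeded a fold enrichment of 4.35, so the bin was full of moderate peaks.

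From 138 to 139 Mb there were 81 peaks over 46 starts. *NHSL1*, a regulator of actin at the cell edge, held 29 of them, and *ARFGEF3* held 5. *TNFAIP3*, the brake on NF-kB signalling also called A20, held 2 peaks, its promoter peak having a fold enrichment of 3.36. The 100 kb from 138100001 to 138200000, which end inside *TNFAIP3*, held 24 peaks. *PERP*, a p53 target of cell death and adhesion, had a promoter peak of 3.10, and *HEBP2* held 1 peak. *PBOV1* and *SMIM28* held none.

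From 151 to 152 Mb there were 63 peaks over 61 starts. *MTHFD1L*, an enzyme of mitochondrial folate metabolism, held 22 of them, with a promoter peak of 4.34. *PLEKHG1* held 14, *AKAP12*, a scaffold for protein kinase A, 12, and *ZBTB2* 3. The neighbouring *RMND1*, *ARMT1* and *CCDC170* held none. *ESR1*, the oestrogen receptor gene that begins in this bin, held 3 peaks over its whole length, of at most 3.19.

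The bins with most peaks per start were poor in genes. The bin from 120 to 121 Mb held 10 peaks and 3 starts, and that from 103 to 104 Mb held 2 peaks and 1 start. That from 118 to 119 Mb held 30 peaks and 15 starts. In this last bin *SLC35F1* held 20 peaks and *CEP85L* 7, and *PLN*, the calcium pump regulator phospholamban, 2. Ratios over so few starts move with a single start.

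The longest stretch between neighbouring peaks was 1.54 Mb, from 103685943 to 105221232, and the only coding gene it touched was *HACE1*, a ubiquitin ligase gene that reaches beyond it and has peaks there. The next, of 1.47 Mb, held *HTR1E* and *CGA* whole, neither with a peak, and the first bases of *ZNF292*, which has peaks further on. A stretch of 1.41 Mb held *TBC1D32* and *GJA1*, which encodes the gap junction protein connexin 43, both without a peak. One of 1.38 Mb held *NKAIN2*, also without a peak, and a part of *TRDN*, which has 4 peaks outside it. The stretch from the start of the arm to its first peak was 1.67 Mb, of which 50000 bp are unsequenced, and held *KHDRBS2*. No peak was called in these stretches at the list's threshold, and without read counts no upper limit can be put on the signal there.

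The level of background under each peak could be estimated from the list, and it differed along the arm. The estimate is the number of background reads for which a Poisson count, given the ratio and a pseudocount of 1, yields the caller's p-value. It rests on the usual formula of the caller, which the list does not state. The median over the arm's peaks was 2.77 reads, the 15th highest of the 39 arms and near the median of the other arms' medians, 2.73. Over the pooled peaks of the other arms the median was 2.89, which put the arm at 0.959 of them. The extremes among the other arms were 2.56 and 4.29, the latter on 5p, and 6p had 3.12. Of the 3 arms with most peaks per start, the long arm of chromosome 6 was thus the one with a background near the middle. Over the 39 arms the background and the peaks per start had a Spearman's rho of 0.65 and a Pearson's r of 0.62, as a description over arms that share 1 pair of libraries.

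The first 3 segments of the arm stood apart in their medians. Before 90 Mb the segment medians of the background were 2.94, 3.06 and 3.04, and beyond it they lay between 2.61 and 2.79. Fold enrichment went the other way, with segment medians of 2.97 to 2.999 before 90 Mb and 3.06 to 3.16 after it. The background is computed from that same fold enrichment, so this opposite movement is no separate observation. Split there, a point chosen after the values were seen, the 442 peaks before had a median background of 3.05 and a median fold enrichment of 2.98. The 1953 peaks after it had 2.73 and 3.12. The middle 50% of the backgrounds, from 2.81 to 3.28 before and from 2.56 to 2.95 after, overlapped. The split is a segment edge, and the bin just past it, from 90 to 91 Mb, had a median background of 3.22 over 42 peaks. The next bin, from 91 to 92 Mb, had 2.80 over 12 peaks. Single bins before 90 Mb also varied, with 2.68 from 67 to 68 Mb over 9 peaks and 3.32 from 82 to 83 Mb over 29.

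A −log10 q of at least 2 was reached by 39.8% of the peaks before 90 Mb and by 46.3% of those after. Peaks per 100 starts were 43.2 before and 47.2 after. By segment, the ratio was highest from 61.9 to 70 Mb, at 81.3 with 128 starts, and next from 130 to 140 Mb, at 62.3 with 481 peaks. It was lowest from 170 Mb to the end, at 19.3. What sets the background level was not tested.

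**Figure D3:**
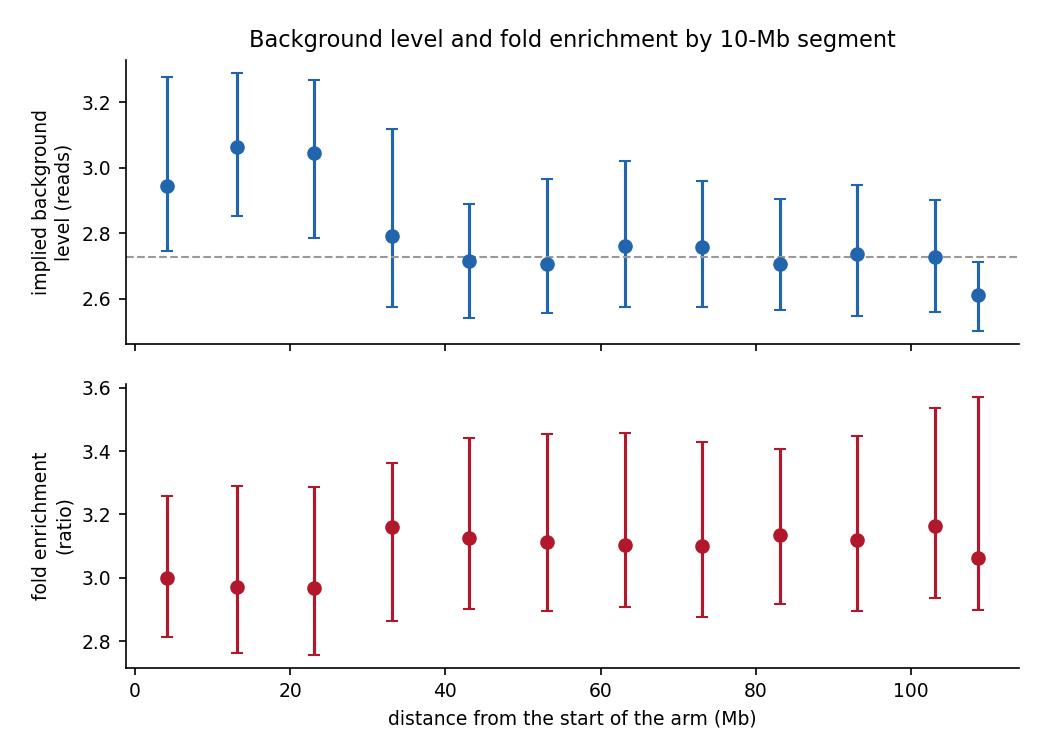
Median implied background level in reads (upper panel, blue) and median fold enrichment as a ratio (lower panel, red) for each 10-Mb segment of the long arm of chromosome 6, against the distance in Mb from the start of the arm, with bars from the first to the third quartile. The dashed line marks 2.73, the median of the other arms' medians. The first 3 segments have the highest backgrounds, from 2.94 to 3.06, and the lowest fold enrichments, and some later segments also lie just above the line.

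Among the 431 protein-coding genes of the arm, 181 had a promoter peak, or 42.0% (37.4 to 46.7), against 43.9% over the autosome arms. A peak at the promoter or anywhere in the gene was present for 276, or 64.0% (59.4 to 68.4), against 58.9%, and the other 155 had none. The surplus of peaks per start thus did not appear as a surplus of genes with a promoter peak. The median of the strongest promoter peak per gene was 3.26, and 18 genes had one of at least 4. Neither value was computed for the other arms, so they do not show whether promoter peaks here were weak or strong.

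There were 40 genes with at least 10 peaks, and they were mostly long. No share from the other arms stands beside this count, so whether it is high or ordinary cannot be said. *KCNQ5*, a potassium channel gene, held the most, 45 peaks with fold enrichments up to 4.04. *NHSL1* held 31 over its whole length, and *ADGRB3*, *PDE7B* and *ARID1B* 30 each. *SASH1* and *PLEKHG1* held 27 each. Over the 431 genes, length and peak number had a Spearman's rho of 0.61, a description across genes that are not replicates. Per 100 kb, among genes of at least 50000 bp, *PTP4A1* came first with 24.3, then *SGK1* with 15.5 and *NCOA7* with 11.9. *PDE7B* and *NCOA7* are named because of these values. The densities are over the whole annotated span of a gene. In *PTP4A1*, all but the last of its 15 peaks ended at or before 64282132. The longest of them, which ends there, lay wholly outside the canonical transcript.

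**Figure D4:**
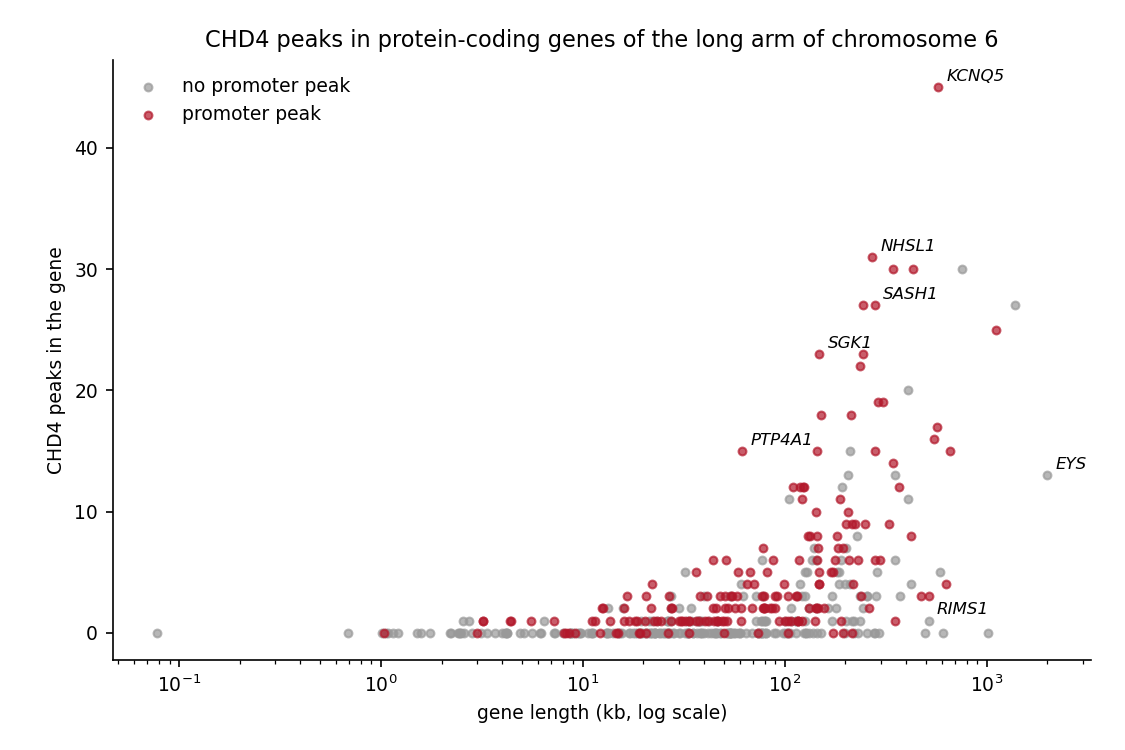
CHD4 peaks in each of the 431 protein-coding genes of the long arm of chromosome 6 (vertical axis) against gene length in kb (log scale), in red for genes with a promoter peak and grey for those without. *KCNQ5* stands highest with 45 peaks, while *EYS*, longer, holds 13 and *RIMS1*, of similar length to *KCNQ5*, holds 1.

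The gene lists that follow can be read against the arm's own shares, 42.0% of coding genes with a promoter peak and 64.0% with any. Chromatin regulators had peaks in 9 of 11 genes (81.8%), 7 of them at the promoter (63.6%). *HDAC2* (ENSG00000196591, chr6:114254192-114332472, minus strand) held 7 peaks, with fold enrichments of 3.93, 3.29, 3.35, 3.04, 3.88, 3.91 and 3.20 in order of position. Of these, 3 overlapped a promoter, 2 of them a promoter of *HDAC2* itself, and the one at 3.20 covered the upstream end of the gene. The highest lay in introns. *ARID1B* had a promoter peak of 3.42 and a strongest internal peak of 4.39. At the promoters of *BEND3*, *ZBTB24*, *HMGN3*, *ASF1A* and *PHF3* the values ran from 2.54 to 3.10, and the peak of *ASF1A* was shared with *MCM9*. *L3MBTL3* and *PHF10* had no peak.

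Genes of cell death and stress had peaks in 10 of 11 (90.9%), with 8 at the promoter (72.7%), beside 64.0% and 42.0% of all coding genes of the arm. The strongest promoter peaks were those of *SESN1*, a brake on mTOR signalling induced by p53, at 3.82, *CASP8AP2*, at 3.65, and *SOD2*, the mitochondrial superoxide dismutase, at 3.54. The *SESN1* promoter peak was also that of *CEP57L1*, which starts next to it on the other strand. The *SOD2* promoter peak had the same values as that of *WTAP*, a subunit of the RNA methylation complex whose gene overlaps it, and cannot be assigned to either gene. *FOXO3* held 12 peaks between 2.69 and 4.27. *BCLAF1* had none.

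Of 18 transcription factor genes, 8 had a promoter peak and 11 had any. *PRDM1*, which directs plasma cell and germ cell development, led with a promoter peak of 4.00. *MYB*, a regulator of blood progenitors, had 3.27, *HEY2*, a target of Notch, 3.37, and *BACH2* 3.17. *EYA4* held 19 peaks and *HIVEP2* 13, the latter without a promoter peak. No peak was called at *POU3F2*, a neural factor also studied in melanoma, or at *CITED2*, *NR2E1*, *OLIG3*, *PRDM13*, *PLAGL1* or *TBXT*.

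Of 8 genes tied to melanoma or pigment cells, 4 had peaks. *SASH1* held 27, *CRYBG1*, whose older name AIM1 stands for absent in melanoma, 15, and *AKAP12* 12. Promoter peaks were called only at *SASH1* and *AKAP12*, at 3.55 and 2.92. *MRAP2*, *NT5E*, *POU3F2* and *RAB32*, a small GTPase of melanosome transport, had none.

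Kinase genes and their partners had promoter peaks in 4 of 14 and any peak in 9. Behind *CCNC* stood *CDK19*, its kinase partner in Mediator, with a promoter peak of 4.16, then *SGK1* with 3.67 and *FYN*, a Src-family kinase with 18 peaks in the gene, with 3.64. *TTK*, *MAP3K7*, *ROS1*, *LATS1* and *RPS6KA2* had none. Of 13 housekeeping genes, 6 had a promoter peak, and the other 7 had no peak at all. Behind *EEF1A1* stood *RPS12*, a ribosomal protein gene, at 4.56, which shares its peak with the neighbouring *SLC18B1*. *TBP*, *TCP1*, *PSMB1* and *SF3B5* were among those without.

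Matrix, adhesion and cytoskeleton genes had peaks in 11 of 15 (73.3%), with 8 at the promoter (53.3%), beside 64.0% and 42.0% of all coding genes of the arm. *COL9A1*, a collagen chain of cartilage, had a promoter peak of 4.27, *LAMA4*, a laminin chain of vessel walls, 4.11, and *CCN2*, a target of TEAD and YAP, 3.49. *EZR*, *FNDC1*, *GJA1* and *SMOC2* had none. Of 9 receptor genes of neurons, 1 had a promoter peak, *GRIK2*, and 7 had any. *GRIK2* held 25 peaks and *ADGRB3* 30.

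Of 16 very long genes, 13 held peaks, with a median of 15.5 per gene, and 9 had one at the promoter. *PDE10A*, a phosphodiesterase, had the strongest promoter peak of these, 4.64. *KHDRBS2*, *NKAIN2* and *RPS6KA2* held none, and *EYS*, a gene of the retina and 1987244 bp long, held 13. The trace amine receptor genes, a cluster of receptors for volatile amines, had peaks in 2 of 6, *TAAR6* and *TAAR1*, of at most 2.84. Of 4 imprinted genes only *IGF2R* had any, with a promoter peak of 3.11. These lists were chosen with earlier results known and their shares are descriptions.

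Motif letters near the centres of the peaks differed little between the arm and the rest, with lower shares for CTCF and the E-box. Matches were counted on both strands in the 501 bp around each centre, and in windows of the same length tiled along the arm. For AP-1 (TGACTCA or TGAGTCA), 267 peaks of the arm held a match, or 11.1% (9.95 to 12.5), against 10.8% of all peaks on the autosome arms and 7.43% of the tiled windows. The CTCF consensus matched in 21 peaks, or 0.877% (0.574 to 1.34), against 1.5% of all peaks and 0.128% of the windows. The E-box CACGTG matched in 152, or 6.35% (5.44 to 7.39), against 7.95% and 3.85%.

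The SOX letters ACAAAG matched in 39.9% of the arm's peaks, against 37.6% of all peaks and 38.3% of the windows. The TEAD letters GGAATG matched in 26.8%, against 26.6% and 24.04%. The centres of the arm's peaks were also poorer in G and C, with a median of 40.3% against 43.7% on the other arms and 37.9% in the tiled windows. At promoter peaks the medians were 43.5% and 50.3%. The part of base composition in the E-box and CTCF shares was not tested, and a match is not a bound site.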

How the data were processed

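CHD4 occupancy was measured with 1 ChIP and 1 input library of 501Mel cells. Per the submitters' processing notes, the tools were bcl2fastq 2.17.1.14, Bowtie 1.0.0 and MACS2 2.1.1.20160309 on hg19. Single reads of 50 bases were mapped and broad peaks called on extended reads. The input was treated as the caller's control, which no source used here states. The study's methods and the sample labels name different library kits. The deposited list gives for each peak the authors' score, the authors' fold enrichment, a ratio, and the −log10 p and −log10 q of the authors' caller. These values were used for description, ranking and filtering alone.

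Positions were counted from 1 and compared with GRCh37 and GENCODE release 44 mapped to that build. An overlap of 1 bp counted. Peaks were binned by their centre. Starts were distinct transcript starts of all gene types. Whether the formula assumed for the implied background level holds for these peaks was not tested. The arm and the gene lists were chosen with earlier results of these data known. The text names genes of those lists, genes at the 10 strongest and 5 longest peaks, genes of the 3 fullest bins and the 3 with most peaks per start, and genes in long stretches without peaks. Genes named for most peaks or most peaks per 100 kb outside these were picked on their values. Some genes of the lists and the sequence under 1 of the strongest peaks are not reported here. The alternatives were stricter thresholds, joined peaks, other counts of starts, base pairs covered, other promoters, shifted bins, other sets of peaks for the background and other motif regions. Scripts ran in Python 3.11.15, numpy 2.4.6, pandas 2.3.3, scipy 1.17.1 and matplotlib 3.10.9.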

Additional observations from a re-analysis of the deposited data

How the results depend on the processing

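No paired analysis was possible because the ChIP and the input had 1 library apiece and nothing here was tested between conditions. At a −log10 q of at least 2, there were 1080 peaks on the arm with a median fold enrichment of 3.46, 20.9 per 100 starts (still first), 23.4% of coding genes with a promoter peak, 11 whole bins without a peak and a SOX match in 42.1%. At 5 or more, there were 23 peaks with a median of 4.64, 0.446 per 100 starts (34th, with 20p first at 1.33), 26.1% at a promoter and 1.39% of coding genes, which leaves few peaks behind each share. Per 100 coding genes with 1 start each there were 555.7 peaks (2nd, after 5p with 609.7), and the peaks covered 429.6 bp per start (4th, after 5p, 6p and 7p). With promoters of 5000 bp on either side, 35.2% of peaks and 52.4% of coding genes counted, and with the start of the gene only, 32.7% of genes, both by construction. Counted anywhere in the peak, matches rose with the length searched to 17.996% for AP-1, 10.5% for the E-box, 48.5% for SOX and 35.8% for TEAD. Of alternatives chosen after seeing the data, leaving out the 3 fullest bins gave 43.1 per 100 starts (3rd, after 6p and 5p), and starts of coding genes alone gave 81.6 (3rd, after 5p with 90.5 and, narrowly, 13q). Except by construction, the cause was not tested. Joined peaks (2104 regions, 40.8 per 100 starts) left the arm first. The 15 values not listed as changed, joined peaks included, moved by less than their limit. Without replicates or read counts, precision beyond counting error is unknown.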

Other observations

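Of the 511 long non-coding RNA genes on the arm, 104 had a promoter peak, or 20.4% (17.1 to 24.1), against 19.4% over the autosome arms. Such genes gave 28.1% of the arm's transcription starts and 21.6% of those on the other arms, while coding genes gave 56.9% and 66.6%. Starts did not always bring peaks: the stretch from 97731580 to 99013337, of 1.28 Mb, held 52 transcription starts, no coding gene and no peak.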
